A study of Mus musculus with 10 samples.

Results

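The genes described here mark the steps by which new neurons are made in the adult hippocampus, together with the machinery of cell division. There were 34 such genes, listed by name in 3 groups. The stem cell group held 6 genes, the immature neuron group 13 and the proliferation group 15. Of the 34, 32 had their own transcript cluster, the unit of probes that the array reports, among the 19936 genes measured. Ccnb1 was not found by name among the annotated rows, and Cdkn1a shared its transcript cluster with another gene, so neither is given a value. Where a gene had several clusters, the brightest was used. None of the 34 genes is present in 3 copies in the Ts65Dn mouse.

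Hippocampal RNA was compared between 5 male Ts65Dn mice and 5 male control littermates, all aged 16 weeks and all on the F1 hybrid B6C3B background. Ts65Dn mice, used to model Down syndrome, carry a small extra chromosome, in which the end of mouse chromosome 16 (Mmu16) is joined to the centromere and adjoining genes of mouse chromosome 17 (Mmu17). The control littermates lacked this chromosome. The extra Mmu17 genes have no counterpart on human chromosome 21, which limits the line as a model. Right and left hippocampus of a mouse gave 1 RNA and 1 Affymetrix Mouse Gene 1.0 ST array.

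New granule neurons are added to the dentate gyrus of the rodent hippocampus throughout adult life. Radial stem cells, which express Sox2, nestin and Hopx and are held in the stem cell state by Notch signals through Hes1 and Hes5, give rise to dividing precursors that switch on Eomes and then to neuroblasts marked by doublecortin, the product of Dcx. Cell division itself follows a fixed order, with D cyclins in the early phase, the MCM helicase and Pcna during DNA replication, and Cdk1, its cyclins and mitotic kinases at division. All of these cells together make up a small part of the hippocampus, and many of the genes are also expressed outside the neurogenic niche, Sox2, Hes5 and Vim in astrocytes and Stmn1, Tubb3 and Neurod2 in neurons.

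The genes in 3 copies were checked against the labels. The 127 measured genes of the Mmu16 segment averaged a log2 signal of 7.58 ± 0.03 in Ts65Dn mice and 7.37 ± 0.01 in control mice, and the 31 of the Mmu17 segment averaged 8.16 ± 0.03 in Ts65Dn mice and 7.89 ± 0.02 in control mice (SD, n = 5 each, exact two-sided permutation test, p = 0.00794 for each segment, the smallest that 5 against 5 mice can give). Hes1 lies on chromosome 16 at 30065357 to 30067796 (GRCm38.p6), and the Mmu16 segment begins at 84718281. Array medians lay between 7.38 and 7.41, and no 2 arrays held identical values. In 3 arrays the markers of the choroid plexus, a tissue that adjoins the hippocampus, had a high mean signal, at 9.10 in Ts65Dn replicate 2, 8.51 in Ts65Dn replicate 4 and 8.83 in control replicate 5, against 6.90 to 7.95 in the other 7 mice. In bulk tissue, fewer cells of a type and less RNA per cell cannot be told apart.

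A log2 signal of 6 was taken as a working line between dim and measured transcript clusters. Of the 32 measured genes, 25 had a mean above 6, and the same held for 70.4% of all genes. All 6 stem cell genes lay above the line, as did 11 of 13 immature neuron genes and 8 of 13 proliferation genes. The 7 dim genes were Eomes (5.50) and Neurod4 (5.02), both transcription factors of neuronal precursors, and Mki67 (5.79), Top2a (5.60), Cdk1 (5.65), Ccna2 (5.71) and Bub1 (4.94), all of which act late in the cell cycle. Signals this close to background understate a fold change. Signals of different transcript clusters come from different probes and do not rank the amounts of RNA.

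No gene of the 32 changed between genotypes in limma's test at a Benjamini-Hochberg adjusted p of 0.05, by which 0.281% of all genes were called. The lowest adjusted p among the 32 was 0.888. At an unadjusted p under 0.05 there was 1 gene, Sox2, with a lower mean in Ts65Dn mice, and none with a higher one. Over all genes 3.33% passed that level, 1.57% with a lower and 1.76% with a higher mean. In no gene were the 5 Ts65Dn mice all above or all below the 5 control mice, a separation seen in 0.878% of all genes (0.532% with higher and 0.346% with lower signals in Ts65Dn mice). A rank method on pairwise fold changes, of the kind the study's methods describe, called 4 genes, Hopx and Hes1 higher and Sox2 and Aurkb lower in Ts65Dn mice, where it called 5.56% of all genes (2.9% higher and 2.66% lower).

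The log2 fold change (Ts65Dn minus control) was positive in 13 genes and negative in 19, with a median of -0.03, and the median over all genes was 0.00. For 29 of the 32 genes the 95% interval of the fold change lay within 0.8 to 1.25. The 3 exceptions were Hopx, Neurod4 and Igfbpl1, which were among the genes that varied most between mice of a genotype. Every dim gene but Neurod4 is among the 29, and for dim genes a narrow interval does not bound the change in RNA, since signals close to background understate it.

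**Figure D1:**
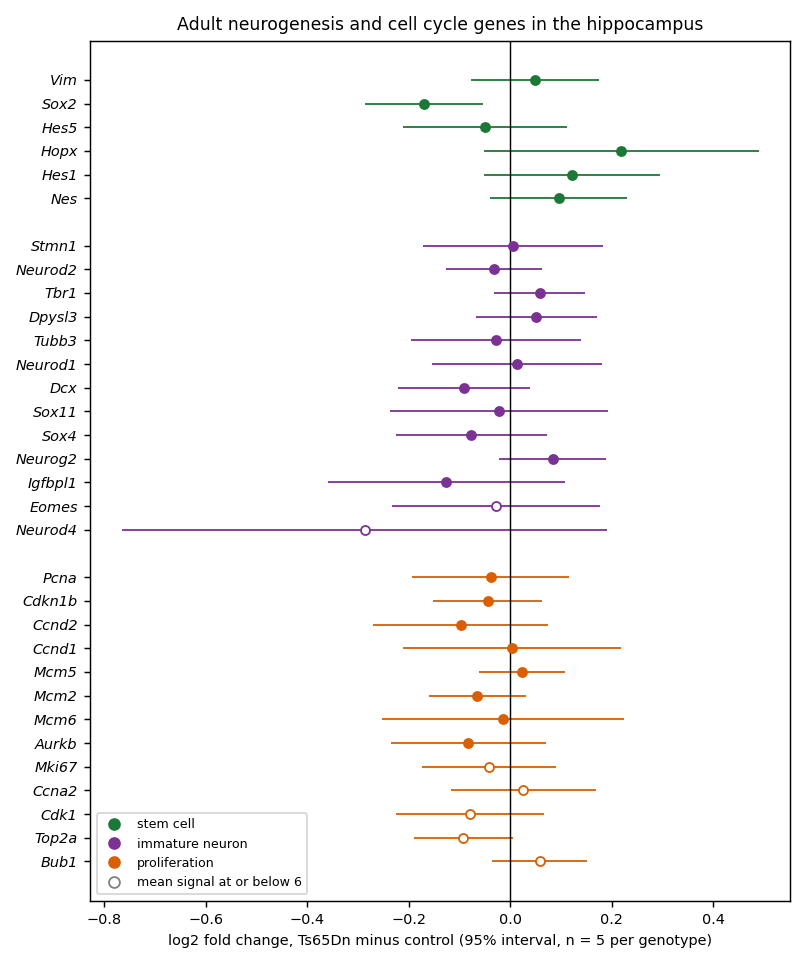
Log2 fold change, Ts65Dn minus control, of each measured gene with its 95% interval (n = 5 mice per genotype), by group and, within a group, by mean signal, with open points for genes at or below a log2 signal of 6. The interval of Sox2 is the only one that leaves out 0, and that of Neurod4 is the widest.

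**Figure D2:**
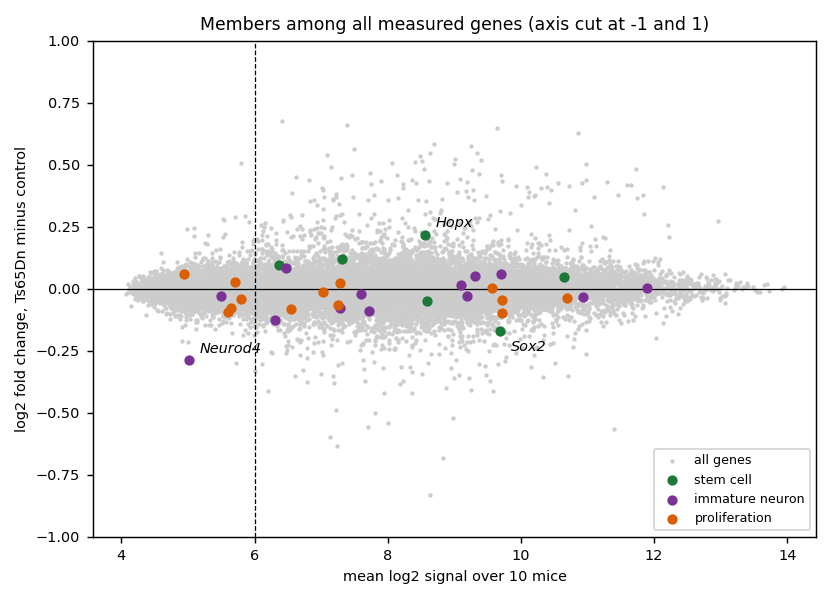
Difference between genotypes (log2 fold change, Ts65Dn minus control, vertical axis) by mean log2 signal of the 10 mice (horizontal axis) for all genes (grey) and for the 3 gene groups (coloured), with the working line at 6 dashed and the vertical axis cut at -1 and 1. Sox2, Hopx and Neurod4 lie toward the edge of the cloud and the other genes near 0.

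Among stem cell genes, Sox2 encodes a transcription factor that keeps neural stem cells undifferentiated. Its log2 signal was 9.60, 9.63, 9.51, 9.52 and 9.77 in the Ts65Dn mice, against 9.73, 9.83, 9.84, 9.74 and 9.74 in the control mice. Of the 5 Ts65Dn mice, 4 lay below the lowest control mouse, and Ts65Dn replicate 5 lay among the controls. The log2 fold change was -0.17 ± 0.05 (SE), a fold of 0.889 with a 95% interval of 0.820 to 0.963 (limma, unadjusted p = 0.00777, adjusted p = 0.888, exact two-sided permutation test over mice, p = 0.0317). Without each mouse in turn the log2 fold change of Sox2 ranged between -0.21 and -0.15 and the unadjusted p between 0.000613 and 0.0219 in limma's test. Sox2 is also a gene of astrocytes, and the mean of 12 astrocyte markers was 10.50 ± 0.04 in Ts65Dn mice and 10.54 ± 0.03 in control mice (SD, n = 5 each), between 10.47 and 10.57 in Ts65Dn mice and between 10.49 and 10.57 in control mice, of which 8 had a negative and 4 a positive log2 fold change. The part of astrocytes in the Sox2 difference was not tested.

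Hopx, which encodes a small homeodomain protein of quiescent stem cells, pointed the other way. Its log2 signal was 8.69, 8.70, 8.93, 8.83 and 8.17 in the Ts65Dn mice and 8.36, 8.48, 8.28, 8.60 and 8.51 in the control mice. Ts65Dn replicate 5 was the lowest of all 10 mice, and the other 4 Ts65Dn mice were above the highest control mouse. Its difference was 0.22 ± 0.12 on the log2 scale (SE, limma, adjusted p = 1). Without Ts65Dn replicate 5, a fit picked after the values were seen, it was 0.34 with an adjusted p of 0.182. Without Ts65Dn replicate 3, the difference was 0.15 (limma, unadjusted p = 0.243). Ts65Dn replicate 5 thus stood apart from its genotype in both Sox2 and Hopx.

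Nes encodes nestin, an intermediate filament protein of neural stem cells. Its log2 signal was 6.57, 6.41, 6.49, 6.24 and 6.38 in Ts65Dn mice and 6.43, 6.27, 6.34, 6.23 and 6.36 in control mice, and the 2 sets overlapped. Its log2 fold change of 0.09 ± 0.06 (SE) was within that spread (limma, adjusted p = 1, exact permutation p = 0.183). Vim, the gene of the intermediate filament vimentin, had signals of 10.79, 10.63, 10.53, 10.65 and 10.74 in Ts65Dn mice and 10.64, 10.57, 10.53, 10.59 and 10.76 in control mice, a log2 fold change of 0.05 ± 0.06 (SE).

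The 2 Notch effectors of the list are transcriptional repressors that hold back neuronal differentiation. Hes1 averaged 7.38 ± 0.17 in Ts65Dn mice and 7.26 ± 0.10 in control mice, and Hes5 averaged 8.56 ± 0.16 in Ts65Dn mice and 8.61 ± 0.08 in control mice (SD, n = 5 each). Hes1 was, beside Hopx, the gene that the rank method called higher. In limma's test its log2 fold change of 0.12 ± 0.08 (SE) had an adjusted p of 1 and an unadjusted p of 0.151. Without Ts65Dn replicate 3, its lowest mouse at 7.11, the unadjusted p was 0.0101. That fit, from 10 that each left out a mouse, was picked after the values were seen.

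**Figure D3:**
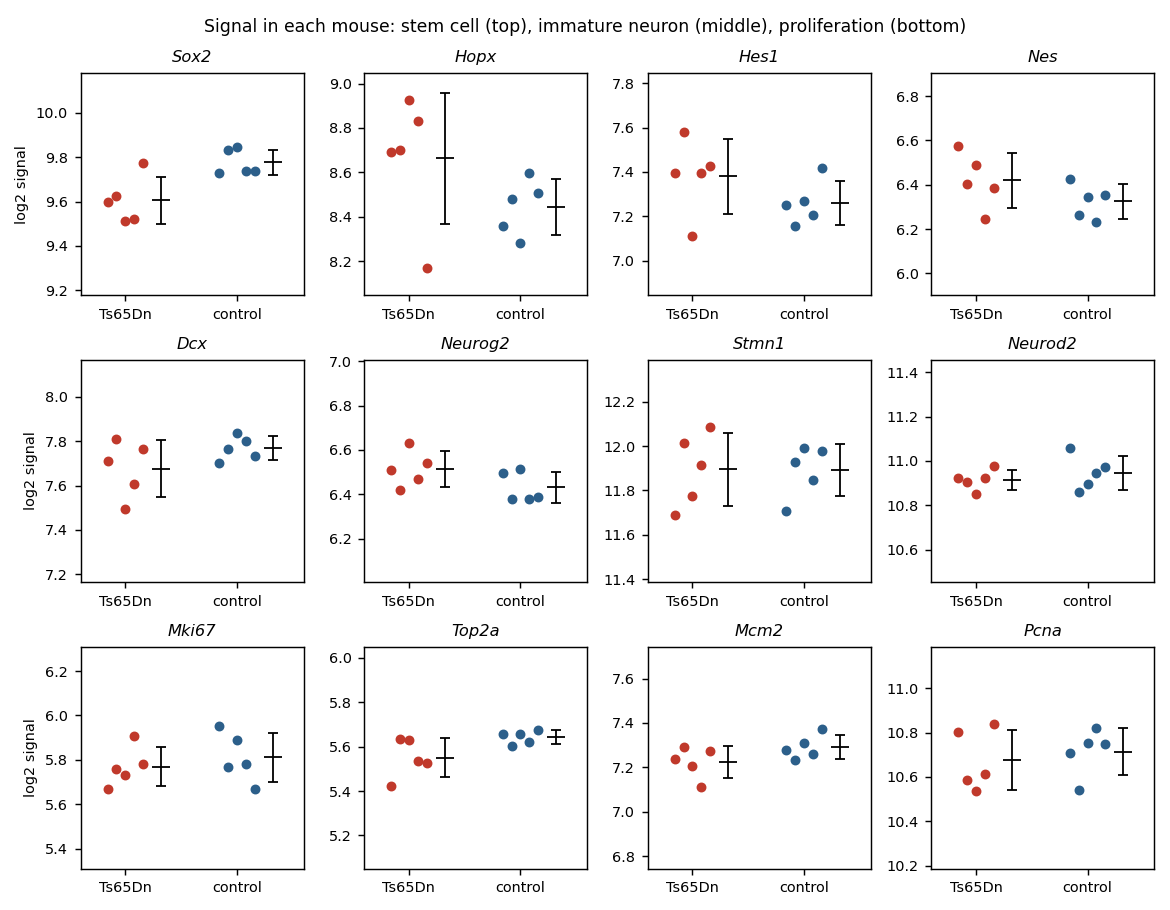
Log2 signal of 12 genes in each mouse, Ts65Dn on the left and control on the right of each panel, with the mean and SD as bars (n = 5 each) and vertical axes of equal span. The ranges of the genotypes overlap in each panel. Sox2 shows 4 Ts65Dn mice below the control range, and Hopx shows 4 above the control range and 1 below it.

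Among transcription factors of the neuronal lineage, Neurog2, a proneural factor of dividing precursors, had signals of 6.51, 6.42, 6.63, 6.47 and 6.54 in Ts65Dn mice and 6.50, 6.38, 6.51, 6.38 and 6.39 in control mice. All 5 Ts65Dn mice lay above the control median, 2 of them above the highest control mouse. Neurog2 thus differed by 0.08 ± 0.05 (log2 fold change ± SE, limma, adjusted p = 1, exact permutation p = 0.103). Eomes, which marks intermediate precursors, was dim in both genotypes, at 5.49 ± 0.08 in Ts65Dn mice and 5.52 ± 0.22 in control mice (SD, n = 5 each). Neurod1, needed for new granule neurons to mature, averaged 9.11 ± 0.08 in Ts65Dn mice and 9.09 ± 0.17 in control mice. Tbr1, a factor of glutamatergic neurons, averaged 9.73 ± 0.05 in Ts65Dn mice and 9.67 ± 0.06 in control mice, and its highest Ts65Dn mouse, replicate 2 at 9.81, stood apart from the other 4 at 9.69 to 9.72.

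Neurod2, a factor of maturing and mature glutamatergic neurons, had signals of 10.93, 10.90, 10.85, 10.92 and 10.98 in Ts65Dn mice and 11.06, 10.86, 10.89, 10.95 and 10.97 in control mice, a log2 fold change of -0.03 ± 0.04 (SE). Sox4 and Sox11, which switch on genes of young neurons, had log2 fold changes of -0.08 ± 0.07 and -0.02 ± 0.10 (SE). The spread between mice exceeded these differences.

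Dcx encodes a microtubule-binding protein of migrating neuroblasts and young neurons, and is the usual marker of adult neurogenesis. Its log2 signal was 7.71, 7.81, 7.49, 7.61 and 7.76 in the Ts65Dn mice and 7.70, 7.76, 7.84, 7.80 and 7.73 in the control mice. Of the Ts65Dn mice, 2 were below the lowest control mouse and 3 were inside the control range. The log2 fold change was -0.09 ± 0.06 (SE), a fold of 0.939 with a 95% interval of 0.858 to 1.03 (limma, p = 0.153, adjusted p = 1, exact permutation p = 0.214). The other cytoskeletal genes gave smaller differences. Stmn1, whose product destabilizes microtubules, had signals of 11.69, 12.01, 11.77, 11.91 and 12.09 in Ts65Dn mice and 11.71, 11.93, 11.99, 11.84 and 11.98 in control mice, a log2 fold change of 0.00 ± 0.08 (SE). Tubb3, a neuronal tubulin, differed by -0.03 ± 0.08 and Dpysl3, a protein of growing axons, by 0.05 ± 0.05 (log2 fold change ± SE). For Dpysl3, control replicate 3 at 9.47 stood above the other 4 control mice at 9.22 to 9.27.

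A few differences rested on a single control mouse. Neurod4, a proneural factor, had a log2 signal of 4.89, 4.90, 4.87, 4.84 and 4.87 in the Ts65Dn mice and of 6.18, 4.90, 4.99, 4.91 and 4.84 in the control mice. Its log2 fold change of -0.29 ± 0.22 (SE), the most negative of the 32, became -0.03 without control replicate 1. In that mouse 5 further genes stood more than 0.6 above all other mice, namely Pde6g, Rbp3 and Gnb3, known from photoreceptors and the pineal gland, Tph1, which makes the first step of serotonin synthesis there, and Chrnb4, a nicotinic receptor subunit. These 5 were chosen after their values were seen. Other mice had such genes too, 20 in Ts65Dn replicate 4, 10 in control replicate 2 and 0 to 4 in each of the other 7. A list of 12 further pineal and photoreceptor genes, also written after the data were seen, had its highest mean in control replicate 1, at 5.91 against 5.67 to 5.86 in the other 9 mice, and 6 of the 12 genes were highest there. The part of another tissue in the Neurod4 signal was not tested.

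Igfbpl1, a secreted-protein gene expressed in newborn neurons, was highest in control replicate 2 at 6.74, against 6.12 to 6.53 in the other 9 mice. Ccnd2, the D cyclin used by adult hippocampal precursors, was highest in the same mouse at 10.02, against 9.46 to 9.76. Control replicate 2 also had the highest mean of 8 markers of subventricular neuroblasts, the Dlx genes among them, at 7.72 against 7.30 to 7.50, and 7 of the 8 were highest in that mouse. All 8 had a negative log2 fold change, from -0.19 for Dlx6 to -0.03. Without control replicate 2 the log2 fold change of Igfbpl1 was -0.04 in place of -0.13 ± 0.11 (SE), and that of Ccnd2 was -0.03 in place of -0.10 ± 0.08 (SE). The part of tissue outside the hippocampus in these signals was not tested.

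**Figure D4:**
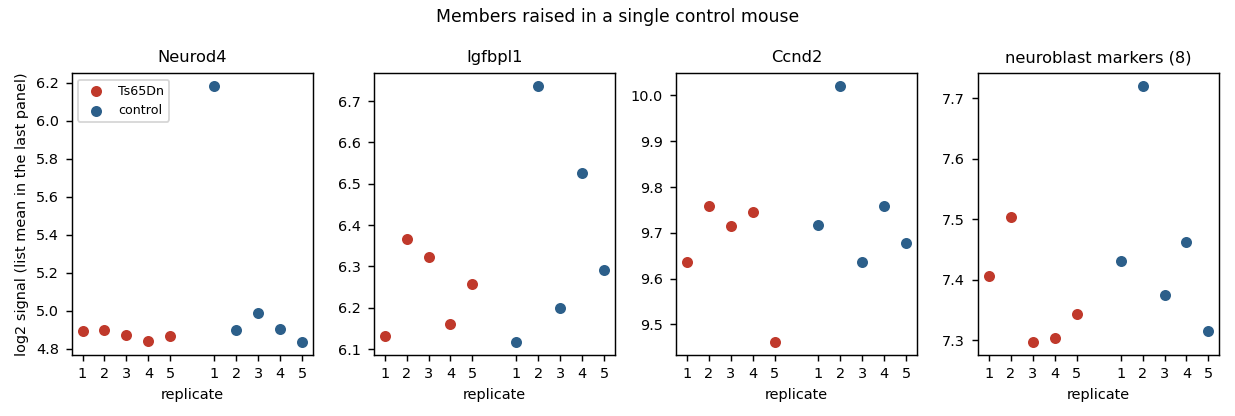
Log2 signal of Neurod4, Igfbpl1 and Ccnd2, and the mean log2 signal of 8 subventricular neuroblast markers, in each of the 5 Ts65Dn mice (left) and 5 control mice (right) by replicate number. Neurod4 is raised in control replicate 1, and the other 3 are highest in control replicate 2.

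In the proliferation group, the defining marker is Mki67, which encodes the Ki-67 protein of dividing cells. Its log2 signal was 5.67, 5.76, 5.73, 5.91 and 5.78 in the Ts65Dn mice and 5.95, 5.77, 5.89, 5.78 and 5.67 in the control mice, so the genotypes overlapped over nearly their whole range. The log2 fold change was -0.04 ± 0.06 (SE), a fold of 0.971 with a 95% interval of 0.886 to 1.06 (limma, adjusted p = 1). Top2a, the topoisomerase that untangles chromosomes before division, had signals of 5.42, 5.64, 5.63, 5.53 and 5.53 in Ts65Dn mice and 5.66, 5.60, 5.66, 5.62 and 5.68 in control mice. Here 3 of the 5 Ts65Dn mice were below the lowest control mouse, with a log2 fold change of -0.09 ± 0.04 (SE, limma, p = 0.0616, adjusted p = 1, exact permutation p = 0.0635). A second, dimmer Top2a cluster, with a mean signal of 4.32, gave 0.02 ± 0.05 (log2 fold change ± SE).

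The other mitotic genes showed no common direction. Cdk1, the kinase that starts mitosis, averaged 5.61 ± 0.12 in Ts65Dn mice and 5.69 ± 0.11 in control mice, and its partner Ccna2 averaged 5.72 ± 0.10 in Ts65Dn mice and 5.70 ± 0.12 in control mice (SD, n = 5 each). Bub1, a spindle checkpoint kinase, differed by 0.06 ± 0.04 and Aurkb, the kinase of the chromosomal passenger complex, by -0.08 ± 0.07 (log2 fold change ± SE). For Aurkb 4 Ts65Dn mice lay below the lowest control mouse, while Ts65Dn replicate 3, at 6.78, was the highest of all 10. Without that mouse, picked after its value was seen, the log2 fold change was -0.15 with an unadjusted limma p of 0.00752. With all 10 mice that p was 0.261.

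Among replication genes, Mcm2, a subunit of the helicase that opens DNA, had signals of 7.24, 7.29, 7.21, 7.11 and 7.27 in Ts65Dn mice and 7.28, 7.23, 7.31, 7.26 and 7.37 in control mice, a log2 fold change of -0.06 ± 0.04 (SE). Its partners Mcm5 and Mcm6 differed by 0.02 ± 0.04 and -0.01 ± 0.11 (log2 fold change ± SE). Pcna, the sliding clamp of DNA polymerase, had signals of 10.80, 10.59, 10.54, 10.61 and 10.84 in Ts65Dn mice and 10.71, 10.54, 10.75, 10.82 and 10.75 in control mice, and both transcript clusters annotated to it gave -0.04. Whether the brighter lies at the gene or at a copy elsewhere was not tested, and 19 of its 20 neighbours by identifier are genes of chromosome 19, while Pcna is on chromosome 2. Of the genes that govern entry into the cycle, Ccnd1 differed by 0.00 ± 0.10 (log2 fold change ± SE). Cdkn1b, the inhibitor that keeps cells out of the cycle, had signals of 9.68, 9.74, 9.58, 9.74 and 9.75 in Ts65Dn mice and 9.70, 9.83, 9.77, 9.62 and 9.79 in control mice, a log2 fold change of -0.04 ± 0.05 (SE). A second, dimmer Cdkn1b cluster, with a mean signal of 6.55, gave 0.17 ± 0.12 and the mean of both clusters 0.06 (log2 fold changes), so the sign depends on the cluster.

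The promoters of the mitotic genes are shown because cell cycle genes are known to share short elements near their start, and that of Sox2 because Sox2 carried the lowest p. Sequences are from RefSeq (GRCm38.p6), each on the strand of its gene and starting 160 bases before the start site. Stretches inside an annotated gene were left out, so that of Mki67 ends 72 bases and that of Top2a 11 bases before the start site. Capitals mark CCAAT or its complement ATTGG, the cell cycle element TTTGAA or its complement TTCAAA, and the E2F element TTTCGCGC or TTTGGCGC.
Sox2 (chr3:34649835-34649994, plus strand): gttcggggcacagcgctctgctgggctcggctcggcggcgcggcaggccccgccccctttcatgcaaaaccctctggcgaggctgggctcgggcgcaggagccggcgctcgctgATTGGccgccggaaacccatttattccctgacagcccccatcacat
Cdk1 (chr10:69352913-69353072, minus strand): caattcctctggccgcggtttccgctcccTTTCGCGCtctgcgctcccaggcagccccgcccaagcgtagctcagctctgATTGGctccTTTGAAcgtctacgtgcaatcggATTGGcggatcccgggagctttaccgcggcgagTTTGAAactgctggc
Mki67 (chr7:135716451-135716539, minus strand): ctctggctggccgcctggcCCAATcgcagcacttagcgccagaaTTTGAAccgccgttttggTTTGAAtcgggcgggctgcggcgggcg
Top2a (chr11:99024200-99024349, minus strand): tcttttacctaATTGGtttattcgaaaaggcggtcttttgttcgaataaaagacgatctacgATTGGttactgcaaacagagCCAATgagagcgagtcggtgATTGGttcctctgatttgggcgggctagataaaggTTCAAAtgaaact
The Cdk1 stretch holds ATTGG on 2 occasions, TTTGAA on 2 occasions and 1 E2F element. That of Mki67 holds 1 CCAAT and TTTGAA on 2 occasions, and that of Top2a holds 4 CCAAT elements and 1 TTCAAA. The Sox2 stretch holds a single ATTGG.

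Of the 34 genes, 26 had a promoter of 300 bases (250 before and 50 after the start) in the RefSeq table, and both strands were searched. CCAAT was present in 10 of 11 proliferation genes, 7 of 10 immature neuron genes and 4 of 5 stem cell genes, against 41.1% of all 27025 genes with a promoter there. TTTGAA was present in 4 of 11 proliferation, 2 of 10 immature neuron and 1 of 5 stem cell genes, against 20.2% of all genes. An E2F element was present in Cdk1, Mcm5 and Mcm6 and, in the stem cell group, in Hopx, against 0.929% of all genes. The elements do not overlap in the stretches shown, and a match is a description of letters, not of a bound factor. The 4 genes with an E2F element had log2 fold changes of -0.08 (Cdk1), 0.02 (Mcm5), -0.01 (Mcm6) and 0.22 (Hopx).

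Over whole groups, the mean log2 signal of the 6 stem cell genes was 8.55 ± 0.06 in Ts65Dn mice and 8.51 ± 0.03 in control mice. It was 8.14 ± 0.04 in Ts65Dn mice and 8.18 ± 0.04 in control mice for the 13 immature neuron genes, and 7.33 ± 0.02 in Ts65Dn mice and 7.36 ± 0.03 in control mice for the 13 proliferation genes (SD, n = 5 each). The median log2 fold changes of these groups were 0.07, -0.03 and -0.04. In each group the ranges of the genotypes overlapped. The sign of the proliferation group depended on the summary, since the median over its genes per mouse differed by 0.0328 where the mean differed by -0.0346. Within the stem cell group the positive values came from Hopx, Hes1, Nes and Vim and the negative ones from Sox2 and Hes5.

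**Figure D5:**
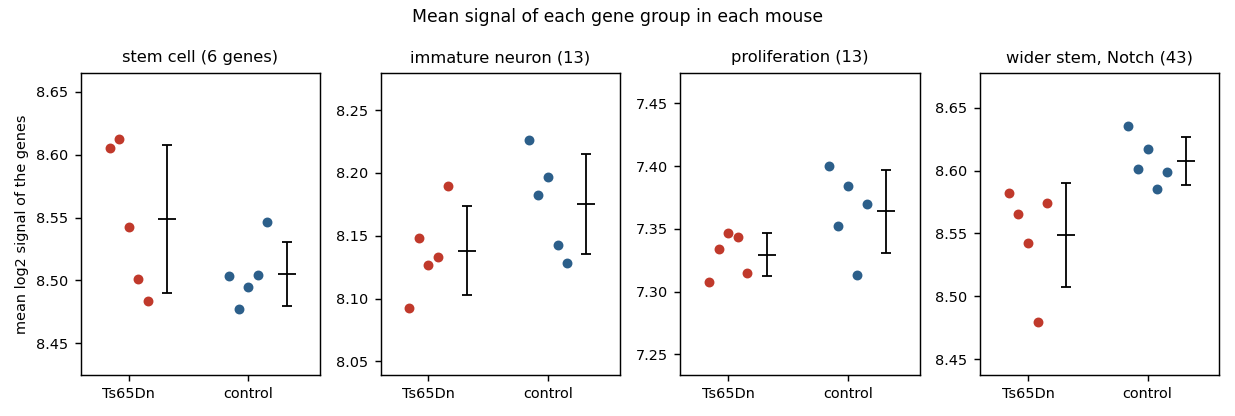
Mean log2 signal of each gene group in each mouse, Ts65Dn left and control right, with the mean and SD as bars (n = 5 each) and vertical axes of equal span. The 3 groups overlap between genotypes. In the wider list of stem cell and Notch genes the 5 Ts65Dn mice (8.480 to 8.582) lie just below the 5 control mice (8.586 to 8.635). The means of the other wider lists, which are not drawn, overlap between genotypes.

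Further genes of the same processes were taken from 5 lists written by function. In the list of 43 measured stem cell and Notch genes, limma called none at the adjusted threshold, while 6 were lower and 0 higher in Ts65Dn mice at an unadjusted p under 0.05, where 1.57% of all genes were lower and 1.76% higher. The rank method called 8 of the 43 lower and 0 higher, where it called 2.66% of all genes lower and 2.9% higher. Signs were negative in 33 and positive in 10, with a median of -0.06, against 47.6% positive signs over all genes. The list mean was 8.58, 8.57, 8.54, 8.48 and 8.57 in Ts65Dn mice, against 8.64, 8.60, 8.62, 8.59 and 8.60 in control mice. Ts65Dn replicate 4 was the lowest, and without it the count of lower genes was 3. Of the 43 genes, 3 (Fgfr3, Gfap and Sox9) are also in the astrocyte list.

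The smallest p in that list belonged to Insm1, a zinc finger factor of precursors leaving the stem cell state, at 8.19, 8.004, 8.20, 8.11 and 8.26 in Ts65Dn mice and 8.37, 8.27, 8.30, 8.41 and 8.27 in control mice. The highest Ts65Dn mouse lay just below the lowest control mouse, with a log2 fold change of -0.17 ± 0.05 (SE, limma, adjusted p = 0.836, exact permutation p = 0.00794). Jag1, a Notch ligand, was at 7.20, 7.20, 7.25, 7.06 and 7.21 in Ts65Dn mice and 7.32, 7.32, 7.27, 7.28 and 7.48 in control mice, likewise without overlap, with a log2 fold change of -0.15 ± 0.05 (SE, limma, adjusted p = 1, exact permutation p = 0.00794). The other 4 were Lfng (-0.14), which modifies the Notch receptor, the stem cell factor Pax6 (-0.15), and Gli1 (-0.12) and Gli2 (-0.17), the transcription factors of Sonic hedgehog signals, given as log2 fold changes and named after their values were seen.

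Of the 225 measured genes of the 5 lists, the only one past the adjusted threshold was in the list of 38 further immature neuron genes. Over all genes, 0.281% passed that threshold. Nhlh1, a basic helix-loop-helix factor of newly born neurons, had a log2 signal of 6.31, 6.29, 6.29, 6.23 and 6.23 in Ts65Dn mice, against 6.11, 6.02, 5.99, 6.06 and 5.93 in control mice. The genotypes did not overlap, and Nhlh1 rose by 0.25 ± 0.04 on the log2 scale (SE, limma, adjusted p = 0.0215). The call held in 4 of 10 fits that left out a mouse and was lost without Ts65Dn replicates 1, 2 or 3 or control replicates 2, 3 or 5, with adjusted p between 0.0209 and 0.0881 and log2 fold changes between 0.23 and 0.27. A fit that blocked on replicate number lost it too, at an adjusted p of 0.0554. Its signal lay close to the line of 6. Over the list, 20 genes had a positive and 18 a negative log2 fold change, with a median of 0.00. The next smallest p was that of Nnat, an imprinted gene of the developing brain, at -0.14 ± 0.07 (log2 fold change ± SE, limma, adjusted p = 1).

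The cell cycle lists were close to 0. Of 48 DNA replication genes none passed an unadjusted p of 0.05 in limma's test, against 3.33% of all genes. Their median log2 fold change was -0.01. The smallest p belonged to Rfc3 (0.07 ± 0.04) and Rfc4 (0.11 ± 0.06, log2 fold change ± SE), subunits of the complex that loads Pcna. Chaf1b, a histone chaperone subunit and the only gene of the lists in 3 copies, had a dim signal of 5.80 ± 0.11 in Ts65Dn mice and 5.80 ± 0.08 in control mice (SD, n = 5 each). Of 55 genes of G2 and mitosis, of which 20 had a mean signal above 6, 1 passed an unadjusted p of 0.05, against 3.33% of all genes. It was the spindle motor gene Kif11, with 5.60, 5.57, 5.63, 5.66 and 5.58 in Ts65Dn mice and 5.56, 5.57, 5.48, 5.48 and 5.51 in control mice (limma, adjusted p = 1). Its genotypes only just failed to overlap, at 5.5689 in Ts65Dn replicate 2 and 5.5665 in control replicate 2, and its mean signal of 5.56 was dim. Ckap2, of the mitotic spindle, followed at 0.08 ± 0.04 (log2 fold change ± SE). The median of that list was -0.02.

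Among 41 genes of G1 control, 1 was higher and 3 were lower in Ts65Dn mice at an unadjusted p under 0.05 (1.76% and 1.57% of all genes), none past the adjusted threshold in limma's test, with a median log2 fold change of 0.01. The lowest p belonged to a pair of antiproliferative genes. Btg1 had signals of 9.85, 9.91, 10.01, 9.96 and 10.04 in Ts65Dn mice and 10.17, 10.18, 10.10, 10.16 and 10.13 in control mice, without overlap, and a log2 fold change of -0.19 ± 0.04 (SE, limma, adjusted p = 0.182, exact permutation p = 0.00794). Btg2, which is also an immediate early gene of active neurons, had signals of 8.01, 8.06, 8.25, 8.01 and 7.85 in Ts65Dn mice and 8.76, 8.41, 8.36, 8.31 and 8.21 in control mice, and a log2 fold change of -0.37 ± 0.10 (SE, limma, adjusted p = 0.491, exact permutation p = 0.0159). Only Ts65Dn replicate 3 reached into the control range of Btg2. The other lower gene was Cdk4, a kinase of the D cyclins, at -0.12 ± 0.04, and the higher one E2f3, a factor of S phase entry, at 0.10 ± 0.04 (log2 fold change ± SE), both named after their values were seen.

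Markers of the other cells of the dissection were compared in the same way. The 12 markers of mature dentate granule neurons averaged 9.24 ± 0.16 in Ts65Dn mice and 9.25 ± 0.13 in control mice, and 6 had a positive and 6 a negative log2 fold change. The 11 measured markers of oligodendrocyte precursors, which also divide in the adult hippocampus, averaged 8.65 ± 0.04 in Ts65Dn mice and 8.69 ± 0.04 in control mice (SD, n = 5 each), and 9 were negative. The precursor gene Olig2 is in 3 copies in Ts65Dn mice, with a log2 fold change of 0.20 ± 0.09 (SE). Microglial markers averaged 8.82 ± 0.16 in Ts65Dn mice and 8.72 ± 0.09 in control mice, with Ts65Dn replicate 4 highest at 9.09. Of these 9, 8 were positive, with a median of 0.07. Choroid plexus markers averaged 7.81 ± 0.97 in Ts65Dn mice and 7.60 ± 0.81 in control mice (SD, n = 5 each). All 12 were positive, with a median of 0.23, where 47.6% of all genes were positive. Kcne2, the choroid plexus marker in 3 copies, had the largest value, 0.39 ± 0.39 (log2 fold change ± SE). Without the 3 arrays with the highest choroid plexus signal, 2 of the 32 genes passed an unadjusted p of 0.05 in limma's test, Sox2 with a log2 fold change of -0.16 and Nes with 0.17, and none passed the adjusted threshold.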

How the data were processed

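The authors deposited log2 signals made by RMA, a procedure of background correction, quantile normalization across arrays and summary over the probes of a transcript cluster. RMA, limma and mm10 are named in the submitters' processing notes, with no version. No array step was repeated, and for arrays the number of mice, 5 per genotype, limits the precision.

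Of 35556 rows, 23410 had at least 1 gene symbol in the platform annotation and were tested. Symbols were updated through RefSeq (GRCm38.p6) by gene number for 21698 rows with 1 symbol and by accession for 3, and 88 were not matched. The row with the highest mean stood for a gene, giving 19936 genes. The comparison of genotypes used lmFit and eBayes (limma 3.58.1, R 4.3.3) on genotype alone, two-sided, with Benjamini-Hochberg adjustment over all tested rows at a threshold of 0.05. Adjusted p-values in the text come from this fit. Exact permutation tests used all allocations of the 10 mice. The fit was tested on simulated data first. The labels call the arrays biological replicates.

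The study's methods rank fold changes over pairs of arrays. A method of that kind was written anew, with 25 pairs, a trim of 0.25 and limits of 0.025 and 0.975, and may differ from the program used there. Alternatives also covered which rows were tested, thresholds on dim rows, 3 normalizations, 3 variance models, the replicate number as a block, other summaries and groupings, and leaving out arrays.

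The genes and lists were chosen with earlier results of these data known. Named in full were Sox2, Nes, Dcx and Mki67, every gene at an unadjusted p under 0.05, the 2 smallest p and 2 highest means of each group, and from each wider list the 2 smallest p and any called gene. Other genes named were chosen after their values were seen.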

Additional observations from a re-analysis of the deposited data

Results flagged for a closer look

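In 3 of 70 groups of 5 mice examined (the 32 genes and 3 group means in each genotype), a single mouse stood far from the other 4, where chance gives this in about 5% of groups. For Neurod4 in control mice, replicate 1 took 0.888 of the range as its gap to the next mouse. For Tbr1 in Ts65Dn mice, the gap of replicate 2 was 0.801 of the range. For Dpysl3 in control mice, the gap of replicate 3 was 0.776 of the range. A gap above 0.71 of the range was counted.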

How the results depend on the processing

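The number of genes called changed was 0 under each alternative listed in the methods and at an adjusted p of 0.1, except that the rank method called 4. The lowest adjusted p of any of the 32 genes in any fit was 0.151. Of 792 log2 fold changes of single genes recomputed under alternatives, 750 kept their sign and side of the threshold, 38 in 10 genes changed sign, and 4 were called by the rank method alone. The count at an unadjusted p under 0.05 was 2 with the replicate block (Sox2 and Nes), 2 without the 3 arrays of highest choroid plexus signal, and 1 to 4 when single mice were left out, with 4 without Ts65Dn replicate 3. The replicate block left the count of changed genes at 0 and brought that of the wider lists from 1 to 0, with an adjusted p of 0.0554 for Nhlh1. Both genotypes carry replicate numbers 1 to 5, and the labels do not say that a number marks a litter or a day. Deviations of same-numbered mice from their group means correlated above 0.1 in 4 of 5 pairs and at 0.031 in the other (highest 0.507, across rows, which are not independent), and 7 of 10 mice correlated best with their own number. Pairs of mice with different numbers correlated between -0.427 and 0.344. A factor shared by number was not tested, and the block was planned as an alternative, not as the main fit. The rank method called 16 of the 225 measured genes of the wider lists (7.11%, against 5.56% of all genes), and limma's count there was 0 to 1 when single mice were left out. The rank calls were uneven, with 8 in the stem cell and Notch list and 5 in the G1 list, all lower. The immature neuron list held 1 higher and 1 lower, the DNA replication list 1 lower, and the list of G2 and mitosis 0. The 6 lower stem cell and Notch genes became 3 to 7 when single mice were left out. The proliferation group differed by 0.0328 log2 units, in place of -0.0346, when its median over genes was taken per mouse and not its mean.

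The 10 genes that changed sign had main log2 fold changes between -0.0447 (Cdkn1b) and 0.0255 (Ccna2). Some of the changed values lay outside that range. Stmn1 gave -0.0081 after quantile normalization anew, -0.0025 after cyclic loess, -0.0217 with array weights, -0.0432 without controls 1 and 2 and -0.0185 without the 3 choroid plexus arrays. Ccnd1 gave -0.0020 after quantile normalization, -0.0320 with array weights and -0.1044 without those 3 arrays. Without them Ccna2 gave -0.0445, Mcm6 0.1215 and Pcna 0.0198. Eomes gave 0.0056 without controls 1 and 2, and Cdkn1b 0.0634 with the mean of its transcript clusters. Leaving out single mice gave ranges of -0.1031 to 0.0294 for Eomes, -0.0418 to 0.0770 for Neurod1, -0.0853 to 0.05 for Sox11, -0.0755 to 0.0300 for Tubb3, -0.0433 to 0.0560 for Stmn1, -0.0107 to 0.0749 for Ccna2, -0.0515 to 0.0739 for Ccnd1 and -0.0742 to 0.0877 for Mcm6. The cause was not tested. The fits without controls 1 and 2 and without 3 arrays were chosen after seeing the data. Genes at or below a signal of 6, with 5 of them mitotic, are those where array background limits what can be seen.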
